A study of Homo sapiens with 6 samples.

Results

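The comparison set the input RNA of HEK293T cells labelled as treated with a PRMT1 inhibitor against the input RNA of cells given DMSO, the solvent. HEK293T is an established cell line from human embryonic kidney and expresses the large T antigen of SV40. Its members were all genes with a mean of at least 5 TPM over these 2 libraries, 9347 of the 60420 identifiers kept. TPM is each gene's share of all transcripts, scaled for gene length. Of the 9347 genes, 8444 were protein-coding and 903 belonged to other RNA classes, and these were described apart. Each gene has a log2 ratio of PRMT1 inhibitor label over DMSO, computed after adding 1 TPM to both values and centred on the median protein-coding gene. That median stood at -0.17 before centring, so a ratio of 0 means a share somewhat below that in DMSO. There was 1 library a side. No difference below therefore has a replicate check, no p-value was computed, and each describes these libraries only.

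The series holds 6 libraries of the same line, an input and a ribosome footprint library for each of DMSO, a PRMT1 inhibitor and an inhibitor of PRMT4. No group differs in genotype, and compound, dose and time are not named. The labels call every library ribosome-protected RNA, and the preparation of the input RNA is not stated in them. PRMT1 transfers asymmetric dimethyl marks to arginines of RNA-binding proteins, histones and signalling proteins and accounts for most of that activity in mammalian cells. PRMT4, also called CARM1, is a related enzyme with a narrower set of targets among splicing factors and transcriptional coactivators. Asymmetric arginine methylation is known for its part in splicing, transcription and the assembly of RNA-protein particles.

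Before the results, a limit of the labels has to be given. Across the 8444 protein-coding genes, the difference between the inputs labelled PRMT1 and PRMT4 inhibitor had a Pearson correlation of -0.44 and a Spearman correlation of -0.42 with the difference between the correspondingly labelled footprint libraries. No library enters both differences, the genes share libraries and are not replicates, and no value was tested. A gene higher in the input of one inhibitor thus tended to be lower in the footprints carrying the same label. Libraries are therefore named by their labels throughout, and each direction below belongs to the library labelled PRMT1 inhibitor. Depth is unknown, since TPM keeps none. From 30576 to 30860 identifiers were above 0 TPM in an input. Of 7 markers of HEK293 cells, VIM stood at 117 TPM in DMSO and 121 TPM in the PRMT1 inhibitor label, and PAX2 and NEFM were below 1 TPM in both. Their sum was 182 and 177 TPM. Of 10 markers of other cells, 4 were at 0 in both libraries and 8 were below 1 TPM in both. The sum of the 10 was 10.96 TPM in DMSO and 6.91 TPM in the PRMT1 inhibitor label. HBA1, at 7.21 and 4.47 TPM, and COL1A1, at 3.26 and 2.0 TPM, were above 1 TPM. In DMSO, HBA1 stood above the HEK293 markers NEFL (5.1 TPM) and KRT8 (3.97 TPM), and below KRT18 (37.4 TPM) and LIN28B (17.6 TPM).

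The messages of the arginine methyltransferases themselves were measured, although an inhibitor acts on the protein, so their levels do not check the label. PRMT1 stood at 136 TPM in DMSO, 90.7 TPM in the PRMT1 inhibitor label and 86.1 TPM in the PRMT4 inhibitor label. Its ratio was -0.42. CARM1 stood at 32.0, 22.8 and 23.6 TPM in the same order, with a ratio of -0.31. PRMT3, which methylates a ribosomal protein, had a ratio of -0.33, and PRMT5, the main enzyme for symmetric dimethyl marks, one of -0.30. PRMT2 at 0.12, PRMT6 at 0.04, PRMT7 at 0.17 and PRMT9 at -0.04 lay nearer the median gene. PRMT8 was listed at 0 in every library. The family's median over 8 measured members was -0.17, beside 0 for all protein-coding genes by construction.

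Most messages differed little between the libraries. In bulk RNA, fewer cells of a kind and less RNA per cell cannot be told apart. The central 95% of protein-coding genes lay between -0.42 and 0.39 on the log2 scale. The 1.5-fold mark was passed upwards by 20 genes, which is 0.237% of those tested, and downwards by 43, or 0.509%. At the 2-fold mark there was 1 higher gene, HMOX1 (0.0118%), and there were 2 lower ones, TSC22D3 and HYPK (0.0237%). HYPK had only 8.65 TPM in DMSO and 3.24 TPM in the PRMT1 inhibitor label. It met the minimum mean of 5 TPM through the library where it was higher, so its ratio is no firm result. Before centring, the 1.5-fold mark was passed upwards by 5 genes and downwards by 205. Among genes with a mean of at least 20 TPM, 27 were at least 1.5-fold lower and only FTL was that much higher. Their own median was -0.05 on this scale, and centred on that median they gave 16 lower and 3 higher.

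**Figure D1:**
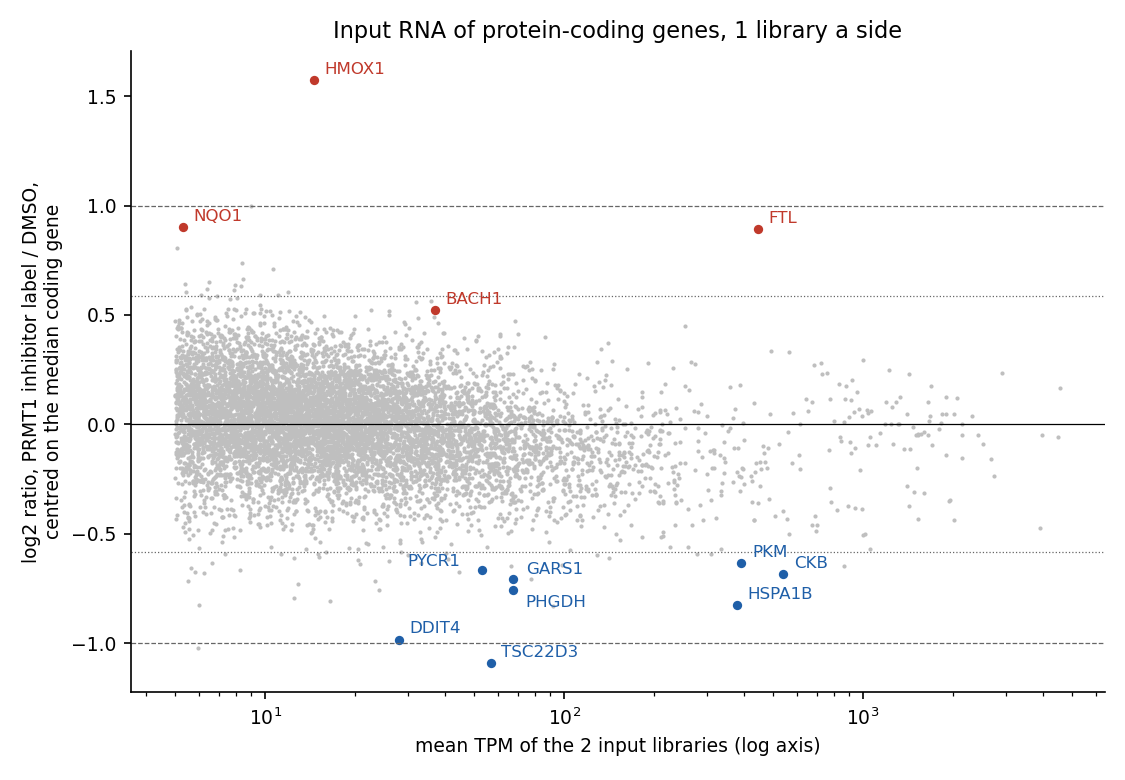
Each grey point is a protein-coding gene, placed by its mean TPM over both input libraries (log axis) and its centred log2 ratio of the PRMT1 inhibitor label over DMSO. Dotted lines mark 1.5-fold and dashed lines 2-fold, and HMOX1 at 1.57 and TSC22D3 at -1.09 lie outermost among the genes that carry a name.

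HMOX1, NQO1 and FTL, genes of haem, quinone and iron handling, were 3 of the 20 genes at least 1.5-fold higher. Others of the 20 had low levels: DMC1, a recombinase of meiosis, had 6.16 TPM in DMSO and 11.8 TPM in the PRMT1 inhibitor label (0.998), MAP1LC3B2 was at 0.81 and ZGRF1 at 0.74. HMOX1 (ENSG00000100292.16_2), the inducible haem oxygenase that breaks haem down and releases its iron, stood at 7.53 TPM in DMSO, 21.6 TPM in the PRMT1 inhibitor label and 157 TPM in the PRMT4 inhibitor label. Both inhibitor labels were above DMSO, and the PRMT4 inhibitor label was the highest of the 3 inputs. In the footprints HMOX1 had 33.0, 642 and 93.9 TPM in the same order, so there the PRMT1 inhibitor label was highest. The ratio was 1.57 for the PRMT1 inhibitor label and 4.59 for the PRMT4 inhibitor label, each against the same DMSO library. FTL (ENSG00000087086.14_3), the light chain of the iron store ferritin, had 336, 556 and 432 TPM in DMSO, the PRMT1 and the PRMT4 inhibitor label, and here the PRMT1 inhibitor label was highest (ratio 0.89). In the footprints FTL stood at 102, 166 and 188 TPM in the same order. NQO1, a quinone reductase, had 3.75 TPM in DMSO and 6.90 TPM in the PRMT1 inhibitor label, a ratio of 0.90 that rests on a low level. It met the minimum mean of 5 TPM only through the library where it was higher, so its place among the 20 is no separate support. BACH1, a repressor of HMOX1 and of ferritin genes, was at 32.4 and 41.7 TPM, a ratio of 0.52, and was among the 12 highest of the 3466 named protein-coding genes with a mean of at least 20 TPM.

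Other genes among those 12 were of several kinds and below 1.5-fold. OMA1, a mitochondrial protease that relays organelle stress, had 22.7 TPM in DMSO and 29.3 TPM in the PRMT1 inhibitor label (0.52). CENPH, of the inner kinetochore, had 27.5 and 36.4 TPM (0.56), DZIP1, which acts in cilium formation, 30.8 and 40.9 TPM (0.56), CHD2, a chromatin remodeller, 22.9 and 29.1 TPM (0.50), and PNN, a nuclear speckle protein of splicing, 32.4 and 40.8 TPM (0.49). ATG13, of autophagy initiation, was at 0.47. U2AF1, which recognises the 3′ splice site, was at 0.52, but a near-identical copy makes this value uncertain. DNAH14 lay at 0.48 and SNHG32 at 0.47. In the PRMT4 inhibitor label, centred on its own median and set against the same DMSO library, DZIP1, CENPH and OMA1 were at 0.27, 0.35 and 0.23.

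The wider list of targets of NRF2, the transcription factor that answers oxidants and electrophiles, was split. Of 21 genes listed, 19 were measured. Of these, 11 lay above 0, as 50.0% of protein-coding genes do by construction, and 8 below, with a median of 0.04 (-0.13 before centring). At least 1.5-fold higher were 3: HMOX1, FTL and NQO1, the last at the low level given above. By role, with the grouping made after the values were seen, the 10 genes of haem, iron, quinone and glutathione had 6 members above 0 and a median of 0.18. Among them, the ferritin heavy chain FTH1 had 534 TPM in DMSO and 599 TPM in the PRMT1 inhibitor label (0.33), GCLM, the modifier subunit of glutathione synthesis, had 9.35 and 10.9 TPM (0.36), and its catalytic partner GCLC had 14.4 and 12.1 TPM (-0.08). The autophagy receptor SQSTM1 was at 0.34. Of the 5 enzymes of the pentose phosphate pathway and NADPH supply, 4 lay below 0, with a median of -0.38. TKT, transketolase, had 58.7 TPM in DMSO and 37.0 TPM in the PRMT1 inhibitor label (-0.49). PGD had 64.0 and 43.6 TPM (-0.38) and TALDO1 had 170 and 122 TPM (-0.31). Only ME1, malic enzyme, was above 0 in this group, at 0.13. Iron genes outside the NRF2 list showed smaller ratios: the transferrin receptor TFRC was at -0.04 and the iron regulatory proteins ACO1 and IREB2 were at -0.21 and 0.10.

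NRF2 binds the antioxidant response element, whose core is TGACNNNGC. This core was sought on either strand in the 250 bases before RefSeq gene starts. It occurred in 10.9% of 35116 promoters and in 5 of 18 promoters (27.8%) of NRF2-list genes, at 4 of 15 genes. Only these 15 of the 21 listed genes had a promoter searched. The promoters of HMOX1, NQO1 and FTL were not all available, so the absence of these genes below is no result. The stretches shown are from GRCh38.p14, a later build than the authors' GRCh37.p13, 5′ to 3′ on the gene's strand. They are shown for genes above 0 (GCLM and ME1) and below it (PGD and TXNRD1, whose match in 1 of its 2 matched promoters is given), and capitals mark the core.
GCLM, chr1:93909446-93909475, minus strand: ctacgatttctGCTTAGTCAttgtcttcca
ME1, chr6:83431170-83431199, minus strand: atctcctgccaTGACTCAGCgcttctcgca
PGD, chr1:10398852-10398881, plus strand: gcctcgccgggGCAATGTCAtctaggtgct
TXNRD1, chr12:104215669-104215698, plus strand: tacacgggctaTGACTTCGCtgttgtcacc
The core was thus present beside genes with ratios of 0.36, 0.13, -0.38 and -0.13. A match describes these letters and not binding.

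At the lower end stood hormone- and stress-responsive regulators. TSC22D3 (ENSG00000157514.16_3), the glucocorticoid-induced leucine zipper, had 80.6 TPM in DMSO, 33.1 TPM in the PRMT1 inhibitor label and 40.2 TPM in the PRMT4 inhibitor label. Both inhibitor labels were below DMSO, and the ratio was -1.09. DDIT4 (ENSG00000168209.4_2), an inhibitor of the growth kinase mTORC1, had 39.0, 17.0 and 27.7 TPM in the same order and a ratio of -0.98. The other genes listed for glucocorticoid and FOXO responses lay nearer the median gene than TSC22D3 and DDIT4. Of 13 measured, 10 were below 0, but only TSC22D3 and DDIT4 were at least 1.5-fold lower. TXNIP, which restrains glucose uptake, was at -0.25, PER1, a clock gene, at -0.21, and FKBP5, a cochaperone of the glucocorticoid receptor, at -0.05. DUSP1, a MAP kinase phosphatase, was at 0.41.

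HSPA1B, the inducible HSP70, had 505 TPM in DMSO, 253 TPM in the PRMT1 inhibitor label and 552 TPM in the PRMT4 inhibitor label. Among the inputs the PRMT1 inhibitor label alone was low. In the footprints HSPA1B had 923, 479 and 402 TPM in the same order, so both inhibitor labels were below DMSO there. HSPA1A encodes a near-identical message, and the sum of both entries was 507 TPM in the DMSO input and 254 TPM in the input labelled PRMT1 inhibitor, a ratio of -0.83. No broad pattern of heat shock genes went with it. HSPA8, the constitutive HSP70, was at -0.49 and HSP90AB1 at -0.36, whereas the inducible genes DNAJB1 at 0.13, HSPH1 at 0.28 and HSPB1 at 0.14 lay above 0. The median of the 21 measured chaperone genes was -0.06. Other abundant genes at the lower end were CKB, brain-type creatine kinase, at 696 and 386 TPM (-0.68), FSCN1, the actin bundler fascin, at 30.5 and 16.1 TPM (-0.72), and IPO4, a nuclear import receptor of histones and ribosomal proteins, at 57.4 and 31.6 TPM (-0.68). ZNG1E belongs to a family of near-identical copies, so its ratio of -0.65 is uncertain.

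Some enzymes that make serine, glycine and proline stood at the lower end, where PHGDH, PYCR1 and SHMT2 were at least 1.5-fold lower. Genes of these pathways are controlled by ATF4, the transcription factor of the integrated stress response, which raises amino acid supply when initiation factor eIF2 is phosphorylated. PHGDH, the entry enzyme of serine synthesis, had 88.6 TPM in DMSO, 46.2 TPM in the PRMT1 inhibitor label and 76.9 TPM in the PRMT4 inhibitor label. The PRMT1 inhibitor label was the lowest of the 3 inputs, and the ratio was -0.76. In the footprints PHGDH had 220, 203 and 144 TPM in the same order, and there the PRMT4 inhibitor label was lowest. PSAT1, the next enzyme, had 41.9 and 27.7 TPM (-0.42) in DMSO and the PRMT1 inhibitor label, and PSPH, the last, had 57.6 and 44.1 TPM (-0.21). SHMT2, which turns serine into glycine in mitochondria, had 50.9 and 29.8 TPM (-0.59), and MTHFD2 of the folate cycle had 75.3 and 55.7 TPM (-0.26). PYCR1, of proline synthesis, had 68.5 and 38.0 TPM (-0.67), and ALDH18A1, earlier in that pathway, was at -0.11. All 7 of these enzymes were below 0, with a median of -0.42. The grouping was made after the values were seen. ASNS, asparagine synthetase, had 35.1, 23.0 and 37.3 TPM in DMSO, the PRMT1 and the PRMT4 inhibitor label (-0.42). CBS, which makes cystathionine from homocysteine, was at -0.56, and the sum of CBS and its near-identical copy CBSL was 192 TPM in DMSO and 102 TPM in the PRMT1 inhibitor label (-0.73).

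The message of ATF4 itself had 365 TPM in DMSO, 255 TPM in the PRMT1 inhibitor label and 374 TPM in the PRMT4 inhibitor label, a ratio of -0.35 for the PRMT1 inhibitor label. Of the 7 regulators measured, ATF4 among them, 4 were above 0 and 3 below. DDIT3, the proapoptotic factor CHOP, had 6.98 and 8.18 TPM (0.37) in DMSO and the PRMT1 inhibitor label, ATF3 had 8.83 and 10.7 TPM (0.42), and PPP1R15A, which dephosphorylates eIF2, had 6.64 and 7.0 TPM (0.23). TRIB3 was at -0.09 and SESN2 at -0.09. The transporters were split as well: SLC3A2, the heavy chain of the leucine exchanger, was at 0.27, its partner SLC7A5 at 0.07, and the cationic and neutral transporters SLC7A1 and SLC38A2 at -0.22 and -0.21. Over the whole list, 18 of 25 measured members were below 0, 4 were at least 1.5-fold lower and the median was -0.21. DDIT4 is among these 4 and was also counted above with the glucocorticoid and FOXO genes. In the PRMT4 inhibitor label, set against the same DMSO library, 23 of the 25 lay above 0, beside 50.0% of all protein-coding genes, and the median was 0.30.

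**Figure D2:**
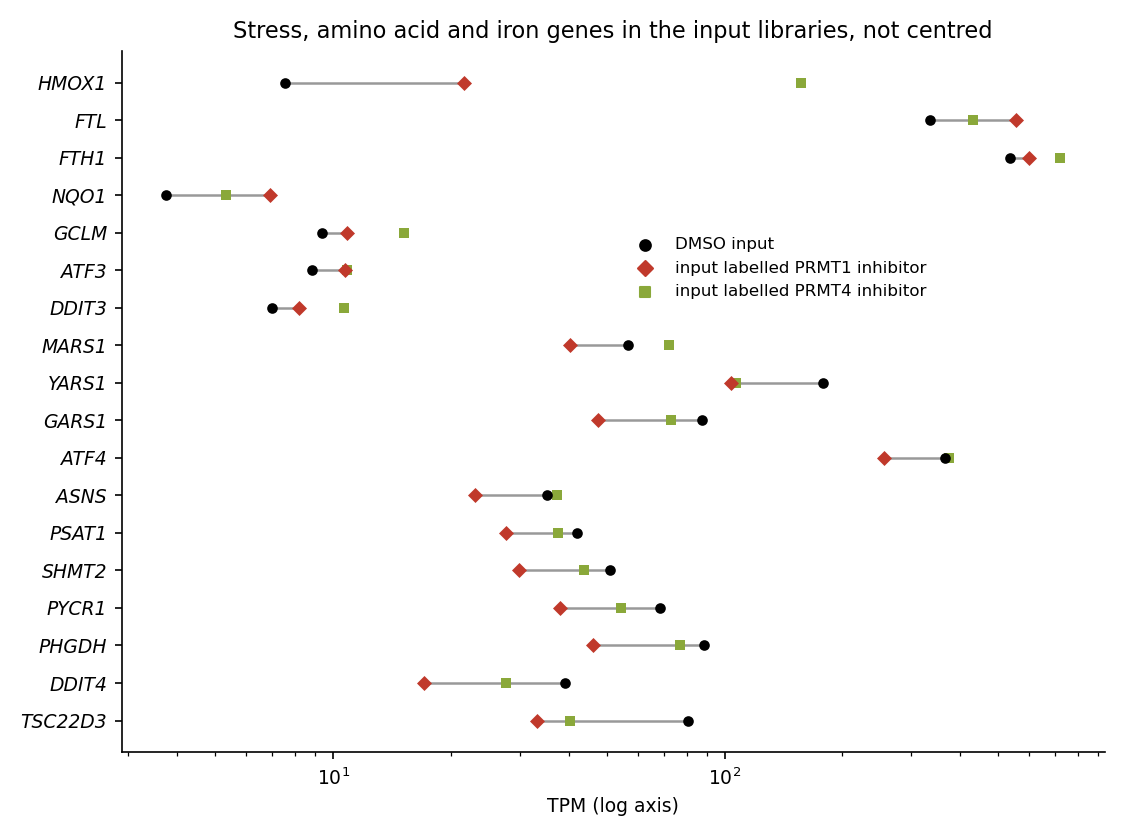
TPM (log axis, not centred) of genes for stress, amino acid supply and iron in the DMSO input (circles), the input labelled PRMT1 inhibitor (diamonds) and the input labelled PRMT4 inhibitor (squares), 1 library each, with lines joining DMSO and the PRMT1 inhibitor label. PHGDH, PYCR1, SHMT2, PSAT1, ASNS, ATF4 and GARS1 are lowest in the PRMT1 inhibitor label, and HMOX1 is highest in the PRMT4 inhibitor label at 157 TPM.

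Cytosolic aminoacyl-tRNA synthetases, which load tRNAs with their amino acids and include further ATF4 targets, were below 0 in 19 of 20 genes, with a median of -0.23. GARS1, for glycine, had 87.7 TPM in DMSO, 47.5 TPM in the PRMT1 inhibitor label and 72.9 TPM in the PRMT4 inhibitor label (-0.71). YARS1, for tyrosine, had 178, 104 and 107 TPM in that order and was at -0.61 in the PRMT1 inhibitor label. VARS1, for valine, was at -0.58 and FARSA, a subunit of the phenylalanine enzyme, at -0.42. RARS1, for arginine, was the exception above 0, at 30.6 and 34.4 TPM (0.33). The 2 most abundant members, YARS1 and SARS1, were both lower, SARS1 at 119 and 87.6 TPM (-0.28). The mitochondrial enzymes of the same kind were nearer the median gene: 9 of 16 were below 0 and their median was -0.05. EARS2, for glutamate, was lowest at -0.36, and RARS2, for arginine, highest at 0.32.

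CEBP-ATF response elements, through which ATF4 acts, hold TGATGNAA. This motif occurred on either strand in 3.14% of the 35116 promoter windows, in 4 of 39 windows (10.3%) at 4 of 25 genes of the ATF4 list, and in 3 of 21 windows (14.3%) at 3 of 16 cytosolic synthetase genes. The matches at measured genes of both lists are shown with their ratios, in GRCh38.p14 and on the gene's strand, with the motif or its reverse complement in capitals.
GARS1, ratio -0.71, chr7:30594834-30594863, plus strand: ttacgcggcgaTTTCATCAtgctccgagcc
ASNS, ratio -0.42, chr7:97872458-97872487, minus strand: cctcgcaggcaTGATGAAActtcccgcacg
IARS1, ratio -0.35, chr9:92293698-92293727, minus strand: cccgcattttcagcgcgTTGCATCAcctcc
AARS1, ratio -0.23, chr16:70289675-70289704, minus strand: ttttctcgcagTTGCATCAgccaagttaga
CEBPG, ratio 0.01, chr19:33374060-33374089, plus strand: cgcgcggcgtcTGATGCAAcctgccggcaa
ATF3, ratio 0.42, chr1:212565205-212565234, plus strand: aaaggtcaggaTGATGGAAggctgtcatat
The matches stood beside genes on both sides of 0. PHGDH, PYCR1 and SHMT2 had no match, which says only that these letters are not in their windows.

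Glycolytic enzymes were lower without exception. All 16 measured members were below 0, with a median of -0.40. By step, HK1, which phosphorylates glucose, had 17.9 TPM in DMSO and 11.8 TPM in the PRMT1 inhibitor label (-0.40), GPI had 107 and 71.8 TPM (-0.40), and the phosphofructokinase genes PFKP, PFKM and PFKL lay between -0.37 and -0.25. ALDOA, aldolase, had 855 and 554 TPM (-0.46), TPI1 had 670 and 442 TPM (-0.43), and GAPDH had 919 and 640 TPM (-0.36). PGK1, the kinase that first returns ATP, had 224 and 139 TPM (-0.51), ENO1, enolase, had 694 and 437 TPM (-0.50), and PKM, pyruvate kinase, had 499 and 286 TPM (-0.63), the lowest of the list. LDHA, which turns pyruvate into lactate, had 417 and 251 TPM (-0.57), and LDHB, the other subunit of the same enzyme, had 346 and 284 TPM (-0.12). PKM was the only member at least 1.5-fold lower. In the PRMT4 inhibitor label against the same DMSO library, 14 of the 16 were below 0, with a median of -0.31.

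Targets of the hypoxia factor HIF-1 outside glycolysis were less far from the median gene. Of 12 measured, 10 were below 0. MIF, a small cytokine, had 1242 and 782 TPM (-0.50), and VEGFA, the vascular growth factor, was at -0.30. BNIP3, a mitophagy receptor, was at -0.20, PDK1, which blocks pyruvate entry to the citric acid cycle, at -0.05, and P4HA1, of collagen hydroxylation, at 0.30.

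Genes of the endoplasmic reticulum leaned the other way. Of the 30 genes for translocation into the organelle and N-glycosylation, 24 were above 0, with a median of 0.17, which was -0.0002 before centring. TRAM1, a translocon partner, had 13.8 TPM in DMSO and 17.6 TPM in the PRMT1 inhibitor label (0.50). SPCS2, of the signal peptidase, had 12.6 and 15.8 TPM (0.47), and SRPRB, of the receptor for the signal recognition particle, had 6.95 and 8.30 TPM (0.39). The particle's own proteins SRP68 at -0.25 and SRP72 at -0.12 were the lowest of the list. Among chaperones and unfolded protein response genes, 13 of 17 measured were above 0, with a median of 0.19, which was 0.03 before centring. PDIA6, a disulphide isomerase, had 11.4 and 14.8 TPM (0.51), DNAJB11 4.74 and 6.19 TPM (0.49), and CALR, the chaperone calreticulin, 36.2 and 43.3 TPM (0.42). XBP1, a transcription factor of this response, was at -0.05, and HERPUD1, of protein disposal from the organelle, was lowest at -0.30. No member of either list reached 1.5-fold.

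**Figure D3:**
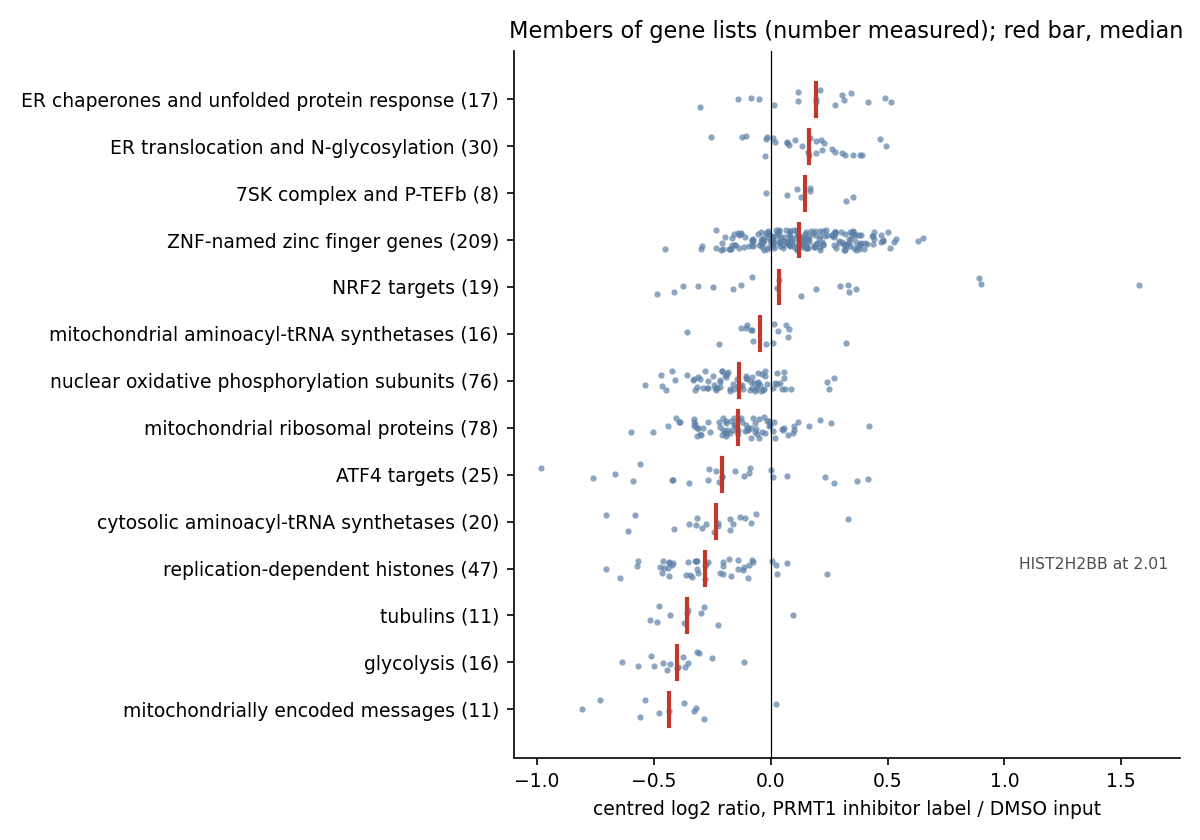
Each point is a measured member of the list named at the left (number measured in parentheses), placed by its centred log2 ratio of the PRMT1 inhibitor label over DMSO, and each red bar is the list's median. All 16 glycolysis members lie below 0, NRF2 targets spread from -0.49 to 1.57, and the point of HIST2H2BB at 2.01 is off the axis and written in.

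Cytoskeletal messages were on the lower side. All 10 tubulin genes in their list were below 0, from TUBB2B at 45.8 and 28.2 TPM (-0.52) to TUBA1A at 130 and 99.03 TPM (-0.23), and the most abundant, TUBA1B, had 1844 TPM in DMSO, 1218 TPM in the PRMT1 inhibitor label and 1012 TPM in the PRMT4 inhibitor label (-0.43). TTC5, which triggers decay of tubulin messages when free tubulin is in excess, was the 11th measured member and lay at 0.09. ACTB, beta-actin, had 1228 and 770 TPM (-0.51) and ACTG1 had 1687 and 1163 TPM (-0.37), while the actin list as a whole had a median of -0.04 over 37 genes.

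Replication-dependent histone genes were lower as a family. Of the 46 protein-coding members measured, 41 were below 0, with a median of -0.30, and the summed TPM of all 66 listed was 31492 in DMSO, 22378 in the PRMT1 inhibitor label and 20942 in the PRMT4 inhibitor label. H2AC20 had 1097 and 624 TPM (-0.65) in DMSO and the PRMT1 inhibitor label, H2BC18 had 1319 and 793 TPM (-0.57), and HIST2H2AA4 had 4752 and 3050 TPM (-0.47). H4C12 was lowest, at 101 and 54.5 TPM (-0.71), and H3C6 highest, at 12.8 and 13.5 TPM (0.24). H3C14 and H3C15 carried the same values, 520 and 342 TPM, so copies shared their reads and single histone ratios are uncertain. The pseudogene HIST2H2BB stood apart at 54.6 and 199 TPM (2.01). These messages end in a conserved stem-loop instead of a poly(A) tail, which in the GENCODE model of HIST2H2AA4 lies in this stretch, with the stem-loop in capitals.
HIST2H2AA4, transcript bases 509 to 534: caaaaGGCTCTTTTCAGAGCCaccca
The 13 measured genes whose models hold exactly these capitals were all below 0 (median -0.42), and 28 of the 33 without them were too (-0.27). A model that stops before the stem-loop counts as without it. Of 9 measured polyadenylated histone variants, 6 were below 0, with a median of -0.15. DNA replication genes, in contrast, were evenly split, 25 of 48 above 0, with MCM7 of the replicative helicase at 126 and 71.3 TPM (-0.64) and PCNA, the sliding clamp, at 147 and 138 TPM (0.07).

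Messages encoded by mitochondrial DNA were low in both libraries and lower in the PRMT1 inhibitor label. Together they had 425 TPM in DMSO, 286 TPM in the PRMT1 inhibitor label and 232 TPM in the PRMT4 inhibitor label. Of 11 measured, 10 were below 0, with a median of -0.43. MT-ND4L had 22.1 and 10.8 TPM (-0.81), MT-CYB 17.1 and 8.73 TPM (-0.73) and MT-CO2 95.6 and 60.8 TPM (-0.48). MT-ATP8 was the exception, at 37.9 and 34.2 TPM (0.02). Nuclear genes of the same organelle leaned the same way by less: 63 of 76 oxidative phosphorylation subunits were below 0 (median -0.14) and so were 63 of 78 mitochondrial ribosomal proteins (-0.14). ATP5F1D of the ATP synthase had 111 and 67.7 TPM (-0.54), CYC1, cytochrome c1, had 75.2 and 48.2 TPM (-0.46), and MRPL23 had 163 and 95.6 TPM (-0.60).

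RNA-binding proteins are the main class of PRMT1 substrates. Among those with RGG motifs, the sequence that PRMT1 methylates, 21 of 28 messages were below 0, with a median of -0.10. G3BP1, a core protein of stress granules, had 391 TPM in DMSO, 231 TPM in the PRMT1 inhibitor label and 174 TPM in the PRMT4 inhibitor label (-0.59). FBL, the methyltransferase of box C/D particles, was at -0.46, while FMR1 was at 0.29. Of 25 hnRNP genes, 20 were below 0, with a median of -0.15, HNRNPD lowest at -0.46 and HNRNPC at 643 and 436 TPM (-0.39). SR proteins and their kinases, with 9 of 22 above 0 and a median of -0.02, and Sm, LSm and SMN genes, with 13 of 29 above 0 and a median of -0.04, were closer to 0. Ribosome biogenesis factors were below 0 in 36 of 47 (median -0.12), with NPM1, nucleophosmin, at 2287 and 1598 TPM (-0.35). In the PRMT4 inhibitor label against the same DMSO library, the medians were -0.32 for RGG-motif proteins and -0.35 for hnRNP genes. They were -0.27 for Sm, LSm and SMN genes, -0.31 for ribosome biogenesis factors and -0.01 for SR proteins and their kinases. The lower medians of RGG-motif and hnRNP genes are thus not particular to the PRMT1 inhibitor label. Of messages of ribosomal proteins, 30 of 51 of the large subunit and 23 of 33 of the small subunit were above 0 (medians 0.04 and 0.05, or -0.13 and -0.12 before centring), with RPS26 at 0.45 and EEF1A1, an elongation factor, at 4573 and 4581 TPM (0.17).

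Lipid genes were mixed. Of 21 measured genes of cholesterol synthesis and uptake, 15 were below 0, with a median of -0.10, or -0.44 over the members with a mean of at least 20 TPM, centred anew. FDFT1, which makes squalene, had 41.9 TPM in DMSO and 25.3 TPM in the PRMT1 inhibitor label (-0.54), and FDPS had 106 and 67.2 TPM (-0.49), while TM7SF2 was at 0.25. SREBF1, the regulator of fatty acid synthesis, had 7.5 TPM in DMSO, 3.81 TPM in the PRMT1 inhibitor label and 8.31 TPM in the PRMT4 inhibitor label (-0.65).

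Zinc finger genes named ZNF formed the largest list on the upper side. Of 209 measured, 159 were above 0, with a median of 0.12 (-0.04 before centring), and 2 were at least 1.5-fold higher. Many encode KRAB repressors that lie in clusters on chromosome 19. The 69 genes on chromosome 19 had a median of 0.24, with 59 above 0, and the 133 protein-coding ones elsewhere had a median of 0.08, with 94 above 0. The ratio moved with base composition over all protein-coding genes, with a Spearman correlation of -0.38 against the GC content of the longest transcript, and the median GC content was 44.0% in the chromosome 19 genes and 45.6% in the other ZNF genes, beside 47.7% in the middle of 5 equal bins of protein-coding genes. Of these bins, that with the lowest GC content had a median of 0.11, and that with the highest content one of -0.10. With GC content and length removed by a linear fit, the chromosome 19 genes had a median of 0.21 and the other ZNF genes one of 0.06. Glycolysis was at -0.36 after the same fit, ER translocation at 0.12 and cytosolic aminoacyl-tRNA synthetases at -0.23. Replication-dependent histones, with a median GC content of 57.7%, went from -0.28 to -0.20 over 47 measured genes, the pseudogene HIST2H2BB included. Abundance moved with the ratio too, from a median of 0.05 in the bin with the lowest TPM to -0.09 in that with the highest (Spearman -0.25), and length less so (0.13). With a lowess trend on abundance removed instead, 5 list medians moved by more than 0.1 and 38 did not. These are descriptions across genes, which are not replicates. Beyond these 2 removals, the part of such properties in the list medians was not tested.

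**Figure D4:**
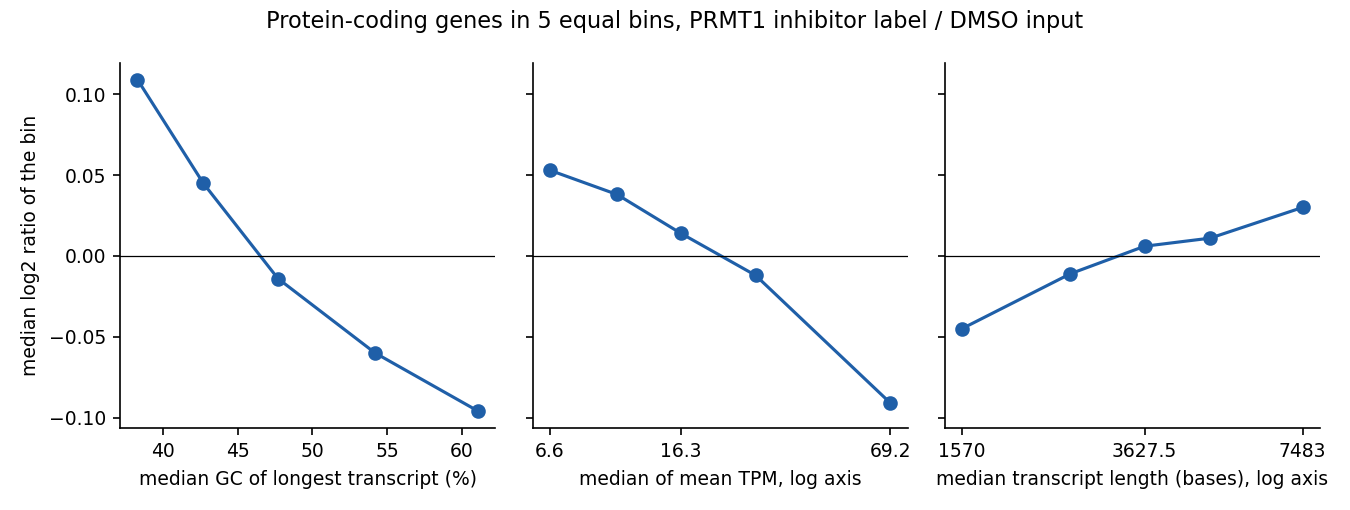
Median centred log2 ratio of the PRMT1 inhibitor label over DMSO in 5 equal bins of the tested protein-coding genes, ordered by GC content of the longest transcript, mean TPM (log axis) and transcript length (log axis). The median runs from 0.11 in the lowest GC bin to -0.10 in the highest.

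The RNA classes outside protein-coding genes spread further. Protein-coding genes held 45.7% of TPM in DMSO and 38.7% in the PRMT1 inhibitor label. The class of small nuclear RNAs, in which the annotation places RN7SK, held 9.75% and 16.6%. RN7SK alone had 15769 and 52493 TPM. The class that holds the other entry of this RNA, named 7SK, held 6.58% and 5.17%. Reads cannot be told apart between these entries, so the split between both classes is uncertain. Because the shares sum to a fixed total, a larger share of one class lowers the others. Of the 903 other RNA genes, 637 (70.5%) lay above the median protein-coding gene. The 2-fold mark was passed upwards by 54 (5.98%) and downwards by 11 (1.22%), and the 1.5-fold mark by 151 (16.7%) and 32 (3.54%). A single annotated RNA, AL139099.4, held 19.7% of TPM in DMSO and 20.3% in the PRMT1 inhibitor label (0.21).

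The 7SK RNA holds the elongation kinase P-TEFb in an inactive complex with HEXIM and LARP7. Its 2 entries in the table went opposite ways. RN7SK had 15769 TPM in DMSO, 52493 TPM in the PRMT1 inhibitor label and 81934 TPM in the PRMT4 inhibitor label (1.90), whereas the entry named 7SK had 53086, 34544 and 19782 TPM (-0.45). The 328 bases of RN7SK lie whole within the 331 bases of the other entry, from its base 2 on, so reads of this RNA cannot be told apart between them. Summed, they had 68855, 87036 and 101716 TPM, and the ratio of the sum was 0.50. The first 100 bases are shown since both entries share them, with the GATC repeats of the HEXIM-binding arm in capitals.
RN7SK, bases 1 to 100: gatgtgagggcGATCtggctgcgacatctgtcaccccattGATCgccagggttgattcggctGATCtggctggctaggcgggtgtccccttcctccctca
Messages of the complex's proteins had a median of 0.15 over 8 genes, or -0.02 before centring. HEXIM1, which inhibits the kinase, had 9.89 and 11.4 TPM (0.35), HEXIM2 was at 0.32, the cyclins CCNT1 and CCNT2 at 0.17 and 0.13, the capping enzyme MEPCE at 0.11, LARP7 at 0.07 and the kinase CDK9 at -0.02.

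Among spliceosomal RNA families, U2 had the largest ratio of summed TPM. U2 pairs with the branch site of introns. Its measured copies were all above 0, 12 of 12, and together they had 35331 TPM in DMSO, 64790 TPM in the PRMT1 inhibitor label and 49968 TPM in the PRMT4 inhibitor label (1.04). RNU2-2P had 21524 and 41922 TPM (1.13) in DMSO and the PRMT1 inhibitor label, RNU2-59P 8846.5 and 12441 TPM (0.66), RNU2-6P 2525 and 6081 TPM (1.43) and RNU2-61P 1680 and 3238 TPM (1.11). The 5′ ends of these 4 copies, from GENCODE, show how alike they are, with the branch-site-pairing GTAGTA in capitals where it is present.
RNU2-2P: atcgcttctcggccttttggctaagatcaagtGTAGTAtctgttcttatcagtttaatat
RNU2-59P: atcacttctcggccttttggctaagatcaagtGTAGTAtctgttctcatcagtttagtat
RNU2-6P: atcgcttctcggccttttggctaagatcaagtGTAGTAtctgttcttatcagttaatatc
RNU2-61P: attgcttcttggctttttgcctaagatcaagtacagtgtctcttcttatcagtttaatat
Compared position by position without gaps, RNU2-59P equals RNU2-2P at 57 of these 60 positions, RNU2-6P at 55 and RNU2-61P at 52. RNU2-6P lacks a t near the end of the stretch, and its mismatches all follow that shift. Reads can be shared at this likeness, and the common sign of the copies is not 12 separate measurements.

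The other spliceosomal RNAs did not share the size of the U2 ratio. U4, whose 2 measured genes were RNU4-1 and RNU4-2, had 2119 and 3316 TPM in all (0.81). U5 had 4293 and 6740 TPM (0.82), with 8 of 8 genes above 0. U1, which pairs with the 5′ splice site, had 33882 TPM in DMSO and 33273 TPM in the PRMT1 inhibitor label (0.14), although RNVU1-18 alone was at 0.73 and RNU1-27P at -0.54. U6 had 3309 and 2752 TPM (-0.10), although its genes ran from -7.03 to 2.94. RNU6-5P and RNU6-3P each had 287 TPM in DMSO and 0.96 TPM in the PRMT1 inhibitor label. These 2 genes belong to 7 genes whose longest transcript is 107 bases of 1 sequence, and the 7 together had 2273 and 1632 TPM (-0.31). In all, 22 of the 414 tested RNAs compared by sequence fell into 6 such groups. With each group summed and counted once, 52 genes or groups were past 2-fold upwards and 6 downwards, in place of 54 and 11. RNU4ATAC of the minor spliceosome was at -0.39 and RNU6ATAC at 0.24. RNU7-1, which directs histone 3′ end processing, had 66.4 TPM in DMSO, 146 TPM in the PRMT1 inhibitor label and 22.02 TPM in the PRMT4 inhibitor label (1.29).

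Guide RNAs of RNA modification were mostly above the median protein-coding gene, as were 70.5% of all 903 other RNA genes. Box C/D RNAs and the long non-coding hosts below lay near that share, so this is not particular to them. Box C/D RNAs, most of which direct ribose methylation, had 7635 and 8395 TPM in all (0.30), with 53 of 77 measured genes above 0. H/ACA RNAs, which direct pseudouridylation, had 1609 and 1930 TPM (0.43), with 55 of 60 above 0, and Cajal body RNAs, which guide changes on spliceosomal RNAs, had 301 and 403 TPM (0.58), with 11 of 13. SNORD3A, or U3, the most abundant, had 3820 and 4487 TPM (0.40). U3 is a box C/D RNA but not a methylation guide, and with SNORD3B-1 (482 and 493 TPM) and SNORD3B-2 (481 and 488 TPM) it makes up most of the C/D sum. SNORD58C was highest among C/D RNAs above 20 TPM, at 11.2 and 48.8 TPM (2.20), and SNORD95 lowest, at 44.2 and 23.7 TPM (-0.71). SCARNA11 had 28.4 and 61.0 TPM (1.25). Long non-coding hosts of such RNAs were above 0 in 17 of 25, with a median of 0.15, or -0.02 before centring: GAS5 had 248 and 320 TPM (0.53), SNHG20 36.3 and 54.2 TPM (0.73), and SNHG16 642 and 446 TPM (-0.36).

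Among RNAs made by RNA polymerase III outside the spliceosome, Y and vault RNAs were higher as well. The Y RNAs, bound by the Ro60 protein, had 10569 and 13964 TPM (0.57), with RNY4 at 3442 and 5479 TPM (0.84) and RNY1 at 6175 and 7449 TPM (0.44). Vault RNAs had 1422 and 2237 TPM (0.82), with VTRNA1-2 at 734 and 1301 TPM (0.99). RMRP, the RNA of the nucleolar endonuclease MRP, hardly differed, at 9838 and 10030 TPM (0.19). Before centring, the ratio of TPM was 1.32 for Y RNAs, 1.57 for vault RNAs and 1.02 for RMRP.

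**Figure D5:**
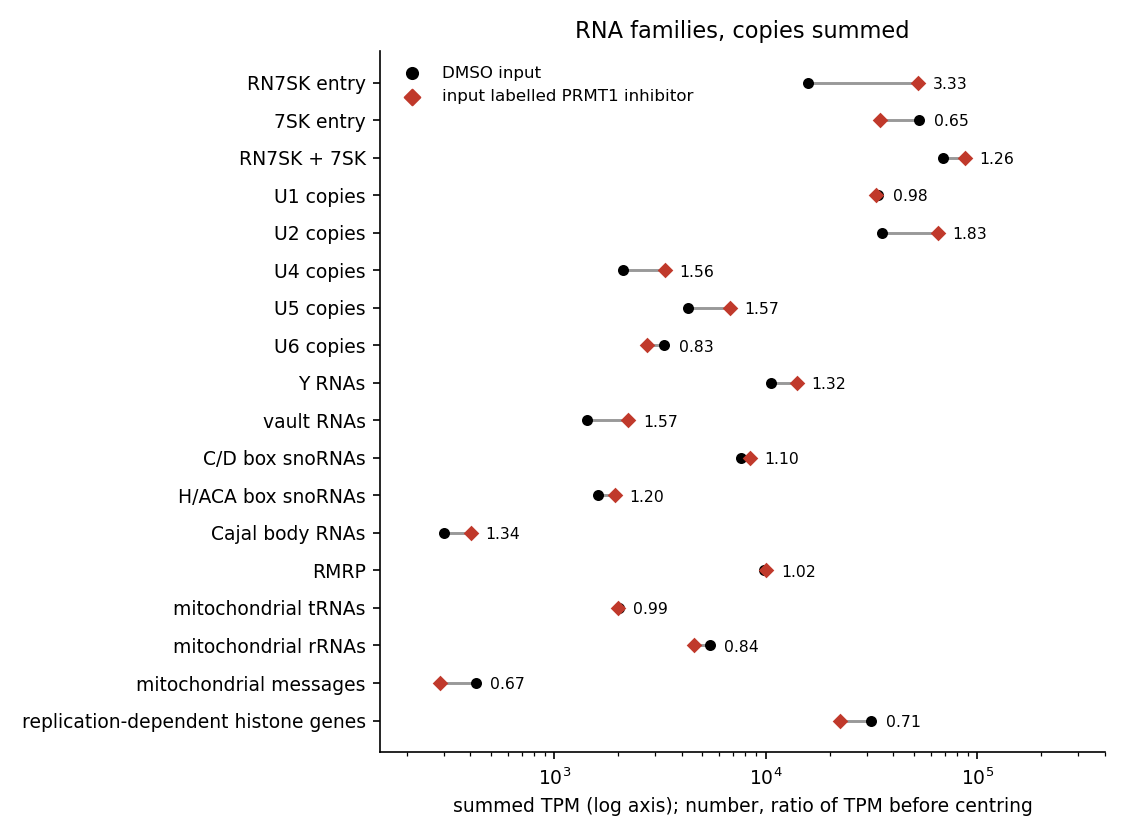
Summed TPM (log axis) of RNA families in the DMSO input (circles) and the input labelled PRMT1 inhibitor (diamonds), 1 library each, with the ratio of TPM before centring beside each pair. The entries RN7SK and 7SK go opposite ways and their sum has a ratio of 1.26, while U2 copies have the largest ratio among the summed families shown, 1.83.

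Mitochondrial RNAs differed by kind. The 2 ribosomal RNAs had 5418 and 4547 TPM (-0.09), with MT-RNR1 of the small subunit at 699 and 426 TPM (-0.55) and MT-RNR2 of the large subunit at 4719 and 4121 TPM (-0.03). Mitochondrial tRNAs had 2009 and 1993 TPM (0.15), with 14 of 19 above 0, beside 70.5% of all other RNA genes. They ranged from MT-TL2 at -0.59 to MT-TR at 1.51. Messages from the same genome lay at -0.40 as a sum. Among nuclear long non-coding RNAs, 7 of 8 measured were above 0. NEAT1, the scaffold of paraspeckles, had 14.2 TPM in DMSO, 22.4 TPM in the PRMT1 inhibitor label and 26.5 TPM in the PRMT4 inhibitor label (0.79). MALAT1, of nuclear speckles, had 177 and 157 TPM (-0.005), and TERC, the RNA of telomerase, had 202 and 234 TPM (0.38).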

How the data were processed

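Input and ribosome footprint libraries of HEK293T cells, 1 per group, had been sequenced. The authors deposited TPM per gene in 1 table. Per the submitters' processing notes, the tools were RSEM 1.2.22, STAR 2.4.2a, Bowtie 1.1.2 and cutadapt 1.18 and the build was GRCh37.p13, with no step given for each. Multimapping and strand settings are not given in these sources. RNase I digestion and monosomes from sucrose gradients are described per the labels' protocols. Each deposited TPM column was matched to its library by name, and 0 value columns were left over.

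Of 60461 identifiers, 41 Y pseudoautosomal copies, all at 0 TPM, were dropped. Names and types came from GENCODE 29 (56157 identifiers with a type) and current symbols (40478). Ratios were log2((TPM + 1) / (TPM + 1)) for genes with a mean of at least 5 TPM over both libraries, centred on the median protein-coding gene (-0.17 before centring, -0.38 for the PRMT4 inhibitor label). A pseudocount understates the change of low genes. TPM keeps no depth, so no counting interval could be given, and there was no test with 1 library a side. Copies were RNAs up to 600 bases whose longest transcript lies within that of another. The steps, run in Python 3.11.15 with numpy 2.4.6, pandas 2.3.3, statsmodels 0.14.6 and matplotlib 3.10.9, were tested on simulated data.

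The comparison and the 43 gene lists were chosen with earlier results of these data known. Among 3466 candidates (protein-coding, with a symbol, mean of at least 20 TPM), the rule for named genes took the 12 highest and 12 lowest ratios. For each list it took the 3 highest, 3 lowest and 2 most abundant members, and likewise 3 of each for RNA classes, with PRMT and 7SK complex genes and lists of at most 12 members in full. Any further gene was picked for its role in a pathway described, with its value already seen. Markers PECAM1 and genes BOP1 and CCAT1 were not matched. The 10 alternatives tried were no centring, rescaling to protein-coding genes, pseudocounts of 0.1 and 5, 4 other filters, removal of a lowess trend on abundance and of GC content and length. Promoter sequences are RefSeq's (GRCh38.p14) and RNA sequences GENCODE's. Some items are not reported here.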

Additional observations from a re-analysis of the deposited data

How the results depend on the processing

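No paired analysis was possible because each group had 1 library. With no replicate spread, a list or gene value counted as moved beyond 0.1 on the log2 scale, and a count beyond 1.5 times. Depth is unknown, so low genes carry an unknown counting error. Copies of one sequence were summed as an alternative chosen after seeing the data.

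Without centring, every ratio was 0.166 lower. Among medians of at least 0.1 in size, those that then crossed 0 were those of ER translocation (-0.0002), ZNF genes (-0.043), the 7SK complex (-0.018), snoRNA hosts (-0.018), lincRNAs (-0.027) and antisense RNAs (-0.016). Medians under 0.1 crossed 0 too: NRF2 targets (-0.13), iron handling (-0.087), p53 targets (-0.11), immediate early genes (-0.12), large and small subunit ribosomal proteins (-0.13 and -0.12), TOP messages (-0.13), DNA replication (-0.15), interferon-stimulated genes (-0.12) and polyamine synthesis (-0.09). The ER chaperone median became 0.028. Medians became -0.57 for glycolysis, -0.40 for cytosolic aminoacyl-tRNA synthetases, -0.38 for ATF4 targets, -0.60 for mitochondrially encoded messages and -0.52 for tubulins. For the 47 measured histone genes, HIST2H2BB included, the median became -0.45. Protein-coding genes at least 1.5-fold higher then numbered 5 and lower 205.

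The counts at 1.5-fold, 20 higher and 43 lower, moved with the filter and pseudocount. A minimum mean of 1 TPM gave 56 and 65, a minimum of 20 TPM, with the centre taken over the remaining genes, gave 3 and 16, no filter gave 46 and 120, and a pseudocount of 5 gave 3 and 25. Removing GC content and length gave 28 lower, and removing the lowess trend gave 12 higher. At 2-fold, the higher count was 2 after rescaling to protein-coding genes, after the lowess trend was removed, and with the filter over all 6 libraries, and 3 with a pseudocount of 0.1. Higher and lower counts at 2-fold were 7 and 4 with a minimum of 1 TPM, 0 and 1 with 20 TPM, and 6 and 6 with no filter, and a pseudocount of 5 gave 1 lower. For the other RNA genes, 54 higher and 11 lower at 2-fold became 103 and 27 with a minimum of 1 TPM and 128 and 46 with no filter. A minimum of 20 TPM gave 5 lower, a pseudocount of 5 gave 32 higher, and summed copies gave 6 lower. Of the centred list medians, with a minimum of 20 TPM, ATF4 targets were at -0.36, ER chaperones at 0.36, cholesterol synthesis at -0.44, iron handling at 0.22, polyadenylated histone variants at -0.026 and mitochondrially encoded messages at -0.29, and these messages were at -0.33 with a pseudocount of 5. The NRF2 target median changed sign also with a minimum of 20 TPM (-0.073) and with no filter (-0.045). The causes were not tested.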

Other observations

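Several gene groups not described above stayed close to the median protein-coding gene. Of 19 measured p53 targets, 11 were above 0 (median 0.06), with RPS27L at 14.1 TPM in DMSO and 16.7 TPM in the PRMT1 inhibitor label (0.40) and BAX, which permeabilises mitochondria, at 143 and 144 TPM (0.18). The large T antigen of these cells binds p53. Of 11 immediate early genes, 7 were above 0 (0.04): JUN had 44.9 and 45.4 TPM (0.18). Initiation factors were below 0 in 24 of 36 (-0.08), with EIF5A, which assists elongation and termination, at 608 and 406 TPM (-0.42) and EIF4A1, the cap complex helicase, at 1120 and 765 TPM (-0.38). Proteasome subunits (-0.06 over 34), chaperonin and prefoldin subunits (-0.03 over 14) and mitosis genes (-0.07 over 34) had no member past 1.5-fold.

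Some further protein-coding genes at least 1.5-fold lower, chosen after their values were seen, were these. CA2, a carbonic anhydrase, had 350 TPM in DMSO, 206 TPM in the PRMT1 inhibitor label and 97.1 TPM in the PRMT4 inhibitor label. BCAT1, which deaminates branched-chain amino acids, had 33.2, 18.8 and 23.7 TPM in that order, and CCND1, cyclin D1, had 38.1, 22.04 and 17.6 TPM. CKMT1A and CKMT1B, near-identical mitochondrial creatine kinases, had 43.1, 23.0 and 33.0 TPM as a sum (-0.71 for the PRMT1 inhibitor label).

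Identifiers with no symbol held large values. ENSG00000265150 had 90352 TPM in DMSO and 92849 TPM in the PRMT1 inhibitor label (0.20). ENSG00000212197 was listed at 0 in DMSO and at 242 TPM in the PRMT1 inhibitor label, and ENSG00000252310 had 1527 and 2861 TPM (1.07).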
